A study of Mus musculus with 9 samples.

Results

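The genes described here are 44 members of the MYC network and of the ribosome biogenesis program, measured by RNA sequencing in cultured mouse T helper cells. They were taken by gene symbol, and the list was made with earlier results of these data known. It held 6 genes of the MYC and MAX transcription factor network, 2 of polyamine synthesis, 34 of ribosome biogenesis and the 2 subunits of the mitochondrial chaperonin. All 44 symbols were found among the 22017 in the table, and all 44 were among the 10538 genes that had at least 1 FPKM (fragments per transcript length and per library size) in at least 3 libraries.

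The study held 9 libraries in 3 groups of 3, all from wild-type C57BL/6 spleen T cells, and its title concerns the likeness of converted Th17 cells to a progenitor type of exhausted T cell. Th17-derived Th1 cells, hereafter converted cells, were differentiated as Th17 cells until day 7 and were then restimulated in Th1 medium. Th1 cells were kept in Th1 medium, with IL-12 at 10 ng/mL and an antibody against IL-4. Th17 cells were kept in Th17 medium, with TGF-b at 1 ng/mL, IL-6 at 20 ng/mL, IL-1b at 10 ng/mL and antibodies against IFN-g, IL-12 and IL-4. All 3 groups shared activation for 3 days through CD3 and CD28 (antibodies at 5 and 1 ug/mL per the treatment protocol), IL-2 at 100 U/mL from day 5, restimulation on day 7 (0.05 ug/mL of each antibody), and collection of RNA on day 10.

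MYC is a transcription factor that binds E-box DNA as a dimer with MAX and activates transcription there. The MXD proteins, MXI1 and MNT also pair with MAX, bind the same sites and repress, so the balance of MYC and these antagonists sets the output of the network. In activated T cells MYC is known for driving growth, polyamine synthesis and the making of ribosomes, in which RNA polymerase I transcribes ribosomal RNA in the nucleolus and a large set of factors modifies, cuts and folds it into the small and large subunits.

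The E-box hexamer CACGTG, which reads the same on both strands, was searched in promoter windows from 250 bases before to 50 bases after each annotated start (RefSeq, GRCm38.p6). Of the members, 38 of 44 had a window; Npm1, Bop1, Fbl, Rrp12, Myc and Srm had none. The hexamer was in the windows of 11 of these 38 members (28.9%), against 12.1% of the 8365 tested genes with a window and 8.09% of all 27025 genes with one. Among the ribosome biogenesis members it was in 7 of 30 (23.3%), and among other ribosome biogenesis genes in 20 of 88 (22.7%). A match is a description of letters and not a shown binding site. The 11 matches are printed with up to 12 bases on each side, since this is the sequence that the MYC and MAX dimer and its antagonists share, with the hexamer in capitals.
Hspd1 at chr1:55088306-55088335, minus strand: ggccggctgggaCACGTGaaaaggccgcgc
Mxd4 at chr5:34187912-34187941, minus strand: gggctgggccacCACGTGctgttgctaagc
Nop2 at chr6:125131811-125131840, plus strand: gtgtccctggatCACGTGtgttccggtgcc
Grwd1 at chr7:45830740-45830767, minus strand: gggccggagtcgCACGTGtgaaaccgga
Utp20 at chr10:88826765-88826789, minus strand: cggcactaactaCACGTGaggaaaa
Pes1 at chr11:3963965-3963994, plus strand: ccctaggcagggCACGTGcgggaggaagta
Mybbp1a at chr11:72441355-72441376, plus strand: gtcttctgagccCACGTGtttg
Mnt at chr11:74830789-74830818, plus strand: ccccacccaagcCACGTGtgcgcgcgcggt
Tsr1 at chr11:74898092-74898121, plus strand: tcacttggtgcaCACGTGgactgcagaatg
Max at chr12:76962234-76962263, minus strand: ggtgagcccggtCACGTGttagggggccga
Wdr43 at chr17:71616220-71616249, plus strand: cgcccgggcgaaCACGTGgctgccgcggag
Max, Mxd4 and Mnt are themselves genes of the network. The other 8 genes are factors of ribosome assembly or, for Hspd1, the larger chaperonin subunit.

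The related hexamer CACGCG, counted on either strand and so also as CGCGTG, was in 12 of 38 members (31.6%) and in 20.9% of tested genes with a window. The promoter of Mxd1 is shown because Mxd1 was the only member past the test in the same direction in both comparisons with Th17 cells. The 250 bases before its start held 0 matches to either E-box hexamer on either strand, and 6 matches to the GC-box letters GGGCGG, which are in capitals (the 2 matches nearest to the start overlap).
Mxd1 at chr6:86669160-86669409, minus strand: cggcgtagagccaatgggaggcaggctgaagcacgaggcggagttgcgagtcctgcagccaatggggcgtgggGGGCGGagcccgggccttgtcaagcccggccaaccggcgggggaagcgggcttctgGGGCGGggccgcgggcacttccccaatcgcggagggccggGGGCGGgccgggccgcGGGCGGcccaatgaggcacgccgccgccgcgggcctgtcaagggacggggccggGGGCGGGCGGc
GGGCGG, or CCGCCC on the other strand, was in the windows of 29 of 38 members (76.3%) and of 70.1% of tested genes with a window, so it was common among all promoters of expressed genes.

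Among the members, the clearest differences between groups lay in the MYC antagonists and not in Myc. Mxd1, whose product represses MYC sites as cells stop dividing and differentiate, rose in both groups that ended in Th1 medium relative to Th17 cells. Mxd4, a related antagonist, fell in converted cells relative to both other groups. The polyamine enzyme gene Odc1 rose in converted cells relative to Th17 cells. No ribosome biogenesis member passed the test between converted cells and either other group, and 6 of 34 were called lower in Th1 cells relative to Th17 cells (28.9% of all genes were), a count that depended on single libraries and on the scaling of the values.

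Counted over all 44 members with limma on log2(FPKM + 1) and a Benjamini-Hochberg adjusted p below 0.05 over all tested genes, 2 were higher and 1 was lower in converted cells than in Th17 cells. Over all genes in that comparison, 6.43% were higher and 9.49% lower. Between converted and Th1 cells, 0 members were higher and 1 was lower, against 5.67% and 4.81% of all genes. At an unadjusted p below 0.05 in limma, 3 members were higher and 2 lower in that comparison. In Th1 against Th17 cells 2 members were higher and 6 lower, against 14.0% and 28.9% of all genes. The lower share of members thus did not exceed that of all genes. At an unadjusted p below 0.05 in limma, 3 members were higher and 16 lower in Th1 against Th17 cells. In converted against Th17 cells 3 were higher and 1 lower at that threshold. Shares of all genes were not counted at unadjusted p, so such counts, here and below, cannot be set against genes at large.

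No label ties replicates to separate cultures or animals, so p-values cover just the spread among these 9 libraries, which may be technical. The 3 comparisons share libraries, so their values are given side by side and are not independent. In bulk RNA, fewer cells that express a gene and less of its RNA per cell cannot be told apart. Libraries summed to 382581 to 405985 FPKM, with 13374 to 14063 genes above 0, and within-group correlations across genes, which are not independent, were 0.964 to 0.993. The read depth behind the values is unknown. T cell genes were high in all libraries (Cd3e at 150 to 236 FPKM). Ifng lay between 717 and 2013 FPKM in converted and Th1 libraries and between 14.2 and 40.7 FPKM in Th17 libraries, while Il17a was at most 0.160 FPKM in converted and Th1 libraries and at 2.99 to 6.16 FPKM in Th17 libraries. Of markers of other cells, Flt3, S100a8, S100a9 and Hbb-bs were at 0 in all 9 libraries. The 3 NK cell markers summed to 4.62 to 9.90 FPKM in converted cells, 7.91 to 19.0 FPKM in Th1 cells and 22.5 to 51.4 FPKM in Th17 cells. The macrophage and monocyte list summed to 3.62 to 6.74, 3.68 to 11.8 and 1.42 to 2.92 FPKM in converted, Th1 and Th17 cells; Cd68 held nearly all of it, and the other 3 of its 4 genes were below 1 FPKM in every library. Of the 3 neutrophil genes Ly6g alone was above 0, at 9.38, 10.4 and 34.7 FPKM in converted cells, 3.05, 2.25 and 2.40 FPKM in Th1 cells and 0.0761, 0.559 and 0.711 FPKM in Th17 cells. The 4 B cell genes summed to 1.17 to 2.38, 0.844 to 2.08 and 2.95 to 4.01 FPKM and the 4 dendritic cell genes to 2.52 to 6.06, 3.80 to 7.64 and 4.42 to 6.26 FPKM in the same order of groups, and the 3 erythroid genes were below 1 FPKM in every library. The part of these other cell markers in the group differences was not tested.

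The CD8 T cell genes Cd8a and Cd8b1 were highest in replicate 3 of every group. Their summed level was 25.5, 41.1 and 152 FPKM in converted cells, 19.8, 26.8 and 170 FPKM in Th1 cells and 50.8, 79.0 and 203 FPKM in Th17 cells, in the order of replicates 1, 2 and 3. The helper T cell gene Cd4 was at 91.1, 86.8 and 96.9 FPKM in converted cells. It was at 124, 81.1 and 57.1 FPKM in Th1 cells and at 97.5, 88.1 and 52.9 FPKM in Th17 cells, in that order. In replicate 3 of every group Cd8a alone was above Cd4, at 104, 117 and 141 FPKM in converted, Th1 and Th17 cells. Counts of members called, and the medians and signs of the ribosome biogenesis members, are given below both with and without replicate 3 of every group.

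Myc itself (chr15:61985391-61990374, plus strand; GRCm38 throughout) was at 81.6, 77.6 and 53.3 FPKM in converted cells, 60.1, 87.1 and 54.4 FPKM in Th1 cells and 44.1, 44.3 and 59.1 FPKM in Th17 cells. The groups overlapped: replicate 3 of the converted and of the Th1 cells lay below replicate 3 of the Th17 cells. The means were 70.9 ± 15.3, 67.2 ± 17.5 and 49.2 ± 8.56 FPKM (SD, n = 3 each). The log2 difference was 0.51 for converted against Th17 cells (adjusted p = 0.138), 0.08 for converted against Th1 cells (adjusted p = 0.844) and 0.43 for Th1 against Th17 cells (adjusted p = 0.138). Without replicate 3 of every group it was 0.83 (adjusted p = 0.0391) for converted and 0.70 (adjusted p = 0.032) for Th1 cells, each against Th17 cells, so the call rested on those libraries. With median-ratio scaling, which sets the libraries to a common median ratio, the Th1 against Th17 difference was 0.60 (adjusted p = 0.0402).

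Max, the shared partner (chromosome 12), varied little. It was at 55.3, 51.3 and 51.4 FPKM in converted cells, 63.3, 54.5 and 51.2 FPKM in Th1 cells and 46.5, 46.3 and 49.8 FPKM in Th17 cells. All libraries of converted and Th1 cells lay above all Th17 libraries, but Max passed the test in no comparison as deposited. The Th1 against Th17 difference was 0.24 on the log2 scale (adjusted p = 0.072) and 0.40 with median-ratio scaling (adjusted p = 0.00938).

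Mxd1 (chr6:86647042-86669161, minus strand) had the largest difference of all members. Its level was 36.0, 32.2 and 70.4 FPKM in converted cells, 90.8, 43.4 and 99.9 FPKM in Th1 cells and 8.09, 8.86 and 9.35 FPKM in Th17 cells. Every converted and every Th1 library lay above every Th17 library, and within both groups the libraries differed more than 2-fold. Mean levels were 46.2 ± 21.0, 78.0 ± 30.4 and 8.77 ± 0.636 FPKM (SD, n = 3 each). The log2 difference from Th17 cells was 2.19 with a standard error of 0.35 in converted cells (4.56-fold in FPKM + 1, adjusted p = 0.00366). In Th1 cells it was 2.93 (7.62-fold, adjusted p = 0.000387). Both calls held in 9 of 9 fits that each left out 1 library. Converted and Th1 cells overlapped in Mxd1, with a log2 difference of -0.74 (adjusted p = 0.212); without replicate 2 of the Th1 cells it was -1.11 (adjusted p = 0.0285).

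Mxd4 (chr5:34173883-34187720, minus strand) differed in another way. It was at 7.48, 8.55 and 12.5 FPKM in converted cells, 27.8, 16.5 and 25.9 FPKM in Th1 cells and 22.8, 28.2 and 17.3 FPKM in Th17 cells. All 3 converted libraries lay below all libraries of the other groups, while Th1 and Th17 cells overlapped. It fell by 1.18 on the log2 scale relative to Th17 cells (adjusted p = 0.0134) and by 1.21 relative to Th1 cells (adjusted p = 0.0183), and the Th1 against Th17 difference was 0.03 (adjusted p = 0.933). Each of these lower calls held in 5 of 9 fits that left out 1 library. The fall relative to Th17 cells missed the threshold without replicate 1 or 2 of the converted cells (adjusted p = 0.0585 and 0.0504) or of the Th17 cells (0.0591 and 0.0656). The fall relative to Th1 cells missed it without replicate 1 or 3 of the Th1 cells (0.0599 and 0.0762) or replicate 1 or 2 of the converted cells (0.0778 and 0.0794). An exon of Mxd4 overlaps the antisense gene Gm42846 over 353 bases, and whether the counting used strand is not given in the sources used here.

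**Figure D1:**
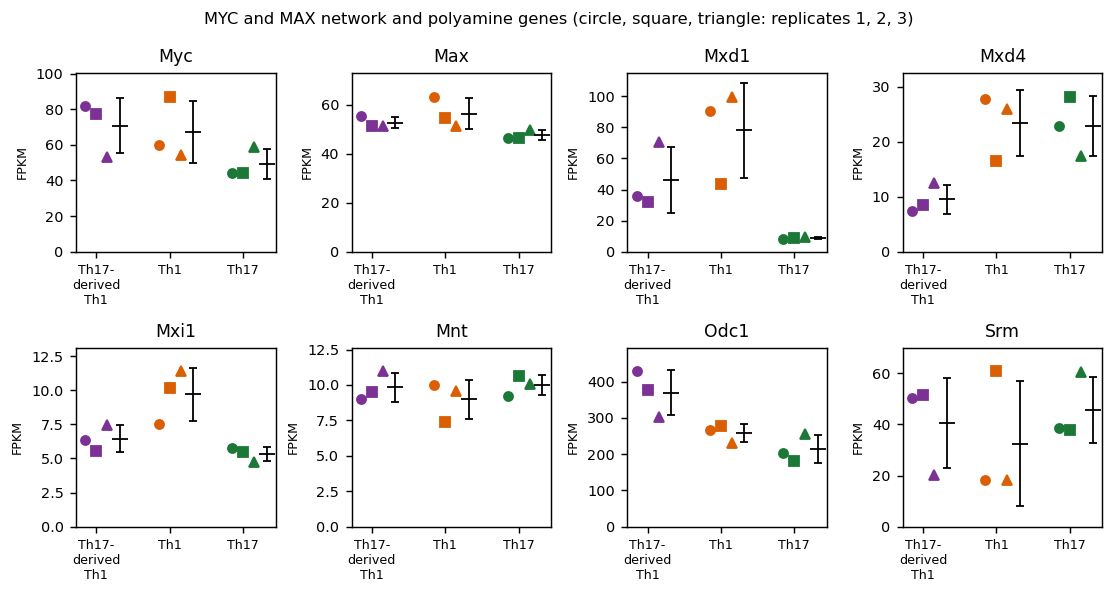
FPKM (vertical axis, from 0) of the 6 network genes and the 2 polyamine genes in each library; circles, squares and triangles are replicates 1, 2 and 3, and bars show the mean ± SD of each group (n = 3). Every Th17 library was below 10 FPKM for Mxd1, and the 3 converted libraries were the lowest for Mxd4.

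Mxi1, the third antagonist gene (chromosome 19), was at 6.35, 5.52 and 7.49 FPKM in converted cells, 7.55, 10.2 and 11.4 FPKM in Th1 cells and 5.77, 5.44 and 4.75 FPKM in Th17 cells. The Th1 libraries lay above all others, those of converted cells included. In Th1 cells Mxi1 was 1.68-fold higher than in Th17 cells (log2 difference 0.75, adjusted p = 0.00562), a call that held in 9 of 9 fits without 1 library. Converted cells differed from Th1 cells by -0.51 (adjusted p = 0.0698; -0.67 and 0.0356 without replicate 1 of the Th1 cells) and from Th17 cells by 0.23 (adjusted p = 0.329). Mnt, a broadly expressed antagonist (chromosome 11), was at 9.02 to 11.0 FPKM in converted cells, 7.42 to 10.0 FPKM in Th1 cells and 9.23 to 10.6 FPKM in Th17 cells, and it passed the test in no comparison.

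The make-up of the antagonist pool therefore differed between groups. FPKM is per transcript length, so the levels of different genes can be set side by side. The ratio of Mxd1 to Mxd4 was 4.81, 3.77 and 5.62 in converted cells, 3.27, 2.63 and 3.85 in Th1 cells and 0.354, 0.314 and 0.539 in Th17 cells. Mxd1 was thus the more abundant of the pair in every converted and Th1 library and the less abundant in every Th17 library. The FPKM sum of Mxd1, Mxd4, Mxi1 and Mnt, divided by that of Myc, was 0.721, 0.720 and 1.90 in converted cells, 2.26, 0.889 and 2.70 in Th1 cells and 1.04, 1.20 and 0.703 in Th17 cells. This ratio overlapped between all groups, and replicate 3 of the converted cells and replicate 2 of the Th1 cells lay apart from the other libraries of their groups.

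Polyamines are small cations that growing cells need for translation. Odc1 (chr12:17544794-17551505, plus strand) encodes ornithine decarboxylase, the rate-limiting enzyme of their synthesis and a direct MYC target. Its level was 428, 378 and 303 FPKM in converted cells, 266, 278 and 231 FPKM in Th1 cells and 203, 182 and 257 FPKM in Th17 cells. Every converted library lay above every library of the other groups. Odc1 rose 1.73-fold relative to Th17 cells (log2 difference 0.79, adjusted p = 0.0112), and the call was lost without replicate 1 or 2 of the Th17 cells (adjusted p = 0.0545 and 0.0549). Relative to Th1 cells the difference was 0.51 (adjusted p = 0.0757; 0.64 and 0.033 without replicate 3 of the converted cells). Srm, which encodes spermidine synthase, was at 50.3, 51.4 and 20.2 FPKM in converted cells, 18.4, 60.7 and 18.4 FPKM in Th1 cells and 38.8, 37.8 and 60.4 FPKM in Th17 cells. The spread of Srm within groups was larger than the differences between them, and it passed the test in no comparison.

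RNA polymerase I was represented by the genes of its 2 largest subunits. Polr1a was at 12.2, 12.4 and 8.71 FPKM in converted cells, 6.04, 11.0 and 6.00 FPKM in Th1 cells and 12.8, 12.2 and 13.1 FPKM in Th17 cells. All Th1 libraries lay below all Th17 libraries, and Polr1a was lower in Th1 cells by the test (log2 difference -0.70, adjusted p = 0.026). Polr1b was at 9.91, 8.98 and 3.84 FPKM in converted cells, 3.05, 10.9 and 3.37 FPKM in Th1 cells and 10.2, 11.0 and 14.0 FPKM in Th17 cells. Its difference of -1.09 in Th1 against Th17 cells was the largest negative one among the members, yet it did not pass (adjusted p = 0.0676), and replicate 2 of the Th1 cells lay at the Th17 level.

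The box C/D particles guide 2'-O-methylation of ribosomal RNA, and their methyltransferase is fibrillarin, encoded by Fbl. Fbl was at 80.6, 84.8 and 51.2 FPKM in converted cells, 38.9, 76.1 and 36.4 FPKM in Th1 cells and 82.2, 80.0 and 101 FPKM in Th17 cells. It was lower in Th1 than in Th17 cells (log2 difference -0.86, adjusted p = 0.0364), with no overlap. The core proteins Nop56 and Nop58 and the U3 particle protein Rrp9 differed by -0.69, -0.85 and -0.81 in that comparison and did not pass (adjusted p = 0.135, 0.121 and 0.125). The box H/ACA particles guide pseudouridine formation by dyskerin, encoded by Dkc1. Dkc1 and the genes of the core proteins Nhp2 and Gar1 differed by -0.70, -0.21 and -0.53 in Th1 against Th17 cells and did not pass (adjusted p = 0.0919, 0.521 and 0.094).

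Among the abundant nucleolar proteins, Npm1, which encodes nucleophosmin, a histone and ribosome chaperone, was at 476, 437 and 353 FPKM in converted cells, 309, 486 and 329 FPKM in Th1 cells and 430, 389 and 504 FPKM in Th17 cells. Ncl, which encodes nucleolin, was at 106, 104 and 71.0 FPKM in converted cells, 58.1, 107 and 62.9 FPKM in Th1 cells and 99.2, 92.1 and 127 FPKM in Th17 cells. Both showed the same 3 low libraries, replicate 3 of the converted cells and replicates 1 and 3 of the Th1 cells. None of the 6 genes of this class (with Nolc1, the chaperone of small nucleolar particles, Gnl3, which encodes nucleostemin, the RNA helicase gene Ddx21 and Mybbp1a) passed in any comparison by limma; at an unadjusted p below 0.05, 2 were lower in Th1 than in Th17 cells. Their differences in that comparison ran between -0.92 for Gnl3 and -0.25 for Npm1.

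Small subunit factors numbered 6: Nop14 and Noc4l, which act as a pair in yeast, Utp20 and Wdr43 of the processome that forms on the nascent transcript, Rrp12, which in yeast serves subunit export, and Tsr1, a late maturation factor in yeast. Rrp12 was the only one past the test, at 12.3, 13.5 and 8.18 FPKM in converted cells, 5.36, 11.5 and 6.03 FPKM in Th1 cells and 12.2, 12.2 and 14.0 FPKM in Th17 cells. Its log2 difference in Th1 against Th17 cells was -0.74 (adjusted p = 0.0436). Wdr43 also did not overlap between those groups but did not pass (log2 difference -0.79, adjusted p = 0.0537).

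Large subunit factors numbered 13, and in Th1 cells 3 of them were below Th17 cells by the test. Rrp1b, a nucleolar factor of ribosomal RNA processing, was at 27.2, 28.8 and 18.1 FPKM in converted cells, 10.2, 25.2 and 12.0 FPKM in Th1 cells and 26.2, 26.7 and 28.6 FPKM in Th17 cells (log2 difference -0.85, adjusted p = 0.0426). Wdr74, a factor of large subunit precursors, was at 17.0, 15.9 and 12.1 FPKM in converted cells, 8.25, 18.1 and 10.8 FPKM in Th1 cells and 20.1, 18.3 and 21.1 FPKM in Th17 cells (-0.71, adjusted p = 0.0391). Noc3l, whose yeast counterpart serves large subunit export, was at 7.62, 7.79 and 4.66 FPKM in converted cells, 4.51, 7.86 and 4.12 FPKM in Th1 cells and 9.75, 7.66 and 9.92 FPKM in Th17 cells (-0.67, adjusted p = 0.0467). Rrp1b and Wdr74 did not overlap between Th1 and Th17 cells, and Noc3l did. Pes1, Bop1 and Wdr12, whose products form the PeBoW complex, differed by -0.44, -0.49 and -0.21 in that comparison and did not pass (adjusted p = 0.0721, 0.211 and 0.196). The other 7 genes, Nop2, Nop16, Noc2l, Ppan, Nip7, Grwd1 and Mrto4, did not pass either, with differences between -0.90 for Grwd1 and -0.14 for Mrto4.

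The chaperonin genes Hspd1 and Hspe1, which lie head to head and fold proteins in mitochondria, passed in no comparison. Hspd1 was at 142, 134 and 80.4 FPKM in converted cells, 72.4, 162 and 75.6 FPKM in Th1 cells and 115, 110 and 161 FPKM in Th17 cells. Hspe1 was at 90.1, 86.9 and 68.3 FPKM in converted cells, 69.1, 104 and 73.1 FPKM in Th1 cells and 75.8, 71.5 and 84.5 FPKM in Th17 cells. Both have annotated copies elsewhere in the genome, 5 for Hspd1 and 6 for Hspe1, so reads may have been split between them, and their exons overlap over 112 bases. Of the other members, Mrto4 has 2 annotated copies.

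**Figure D2:**
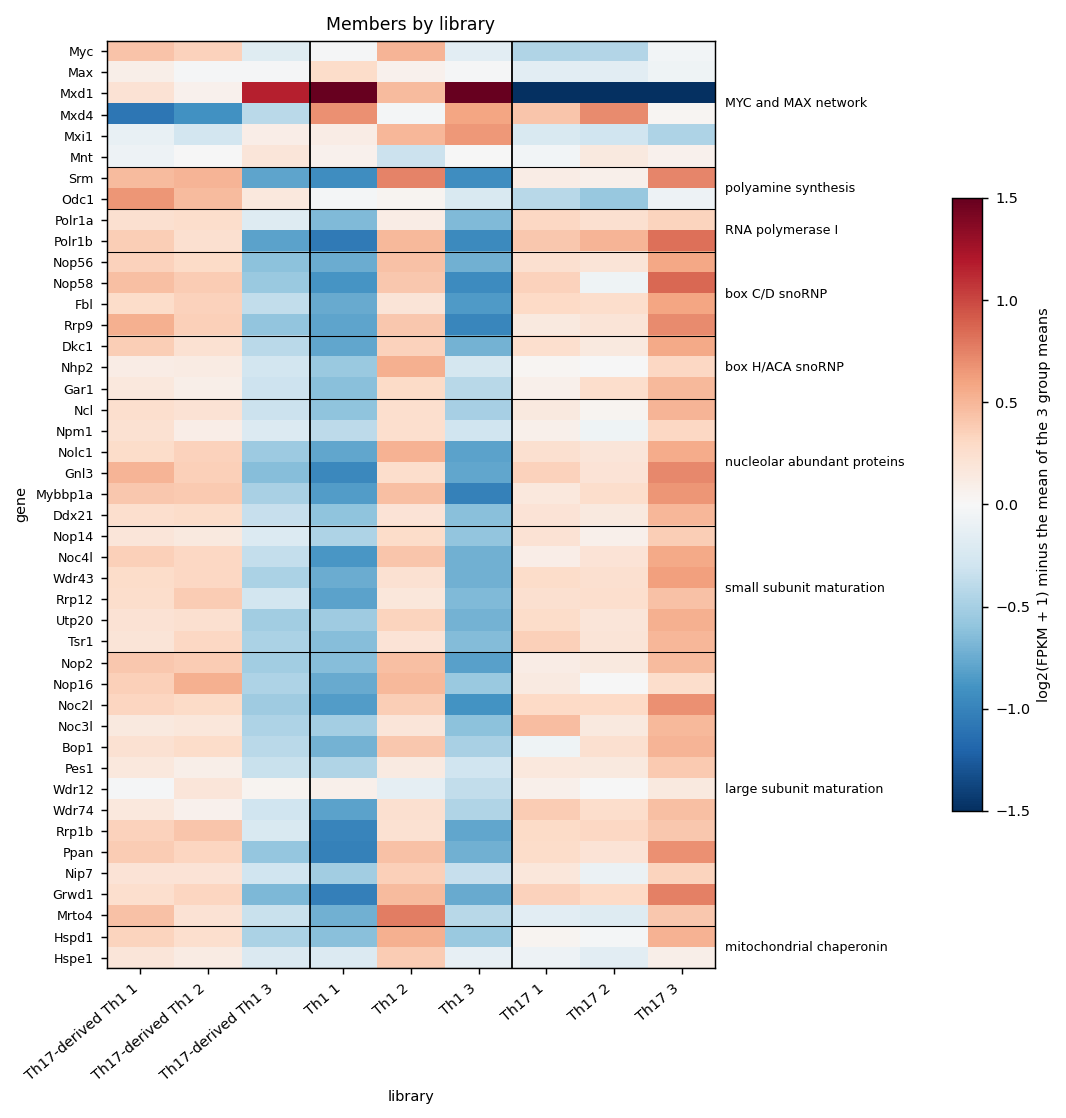
Deviation of log2(FPKM + 1) of each of the 44 members (rows, by role) from its mean over the 9 libraries (columns, by group). The colours saturate at the ends of the scale, which Mxd1 exceeds. Replicate 3 of the converted cells and replicates 1 and 3 of the Th1 cells are low across the ribosome biogenesis rows other than Wdr12, and replicate 2 of the Th1 cells is high in the same rows.

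Taken over the 34 ribosome biogenesis members, the median log2 difference was -0.26 in converted against Th17 cells, 0.40 in converted against Th1 cells and -0.69 in Th1 against Th17 cells. Over all tested genes the medians were -0.12, 0.05 and -0.17. With limma 0 of the 34 passed between converted and Th17 cells, also at an unadjusted p below 0.05, and 0 passed between converted and Th1 cells, with 2 higher at an unadjusted p below 0.05. In Th1 against Th17 cells 6 were lower and 0 were higher, with 16 lower at an unadjusted p below 0.05. The signs were nearly uniform nonetheless: 31 of 34 differences were negative in the first comparison, 34 of 34 positive in the second and 34 of 34 negative in the third. The medians of all tested genes had the same signs, and the share of all genes with each sign is not given here. By group means, converted cells lay between Th1 cells (lowest) and Th17 cells (highest) for 31 of 34 members, against 42.1% of all tested genes, and the other 3 (Nop16, Wdr12 and Mrto4) had converted cells highest and Th1 cells lowest. The first comparison turned on replicate 3. Without replicate 3 of the converted cells the biogenesis median against Th17 cells was -0.016 (all genes, -0.094), with 15 of 34 differences positive, and converted cells lay between Th1 and Th17 cells for 19 of 34 members, against 38.8% of all genes. Without replicate 3 of every group the median was 0.09 (all genes, -0.087), 25 of 34 differences were positive, and converted cells lay between the other groups for 9 of 34, against 36.6% of all genes; for 24 of 34 they were then the highest and Th1 cells the lowest, against 11.2% of all genes. The sign of this difference thus changed with those libraries. Without replicate 3 of every group the median was 0.48 in converted against Th1 cells, with 34 of 34 positive, and -0.38 in Th1 against Th17 cells, with 33 of 34 negative. With all libraries and median-ratio scaling, 29 of 34 were negative in converted against Th17 cells (median -0.15; all genes, -0.016). In converted against Th1 cells 34 of 34 were then positive (0.35; all genes, 0.0014). In Th1 against Th17 cells 33 of 34 were negative (-0.53; all genes, -0.015). These members share reads from the same 9 libraries, so their signs are not independent.

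**Figure D3:**
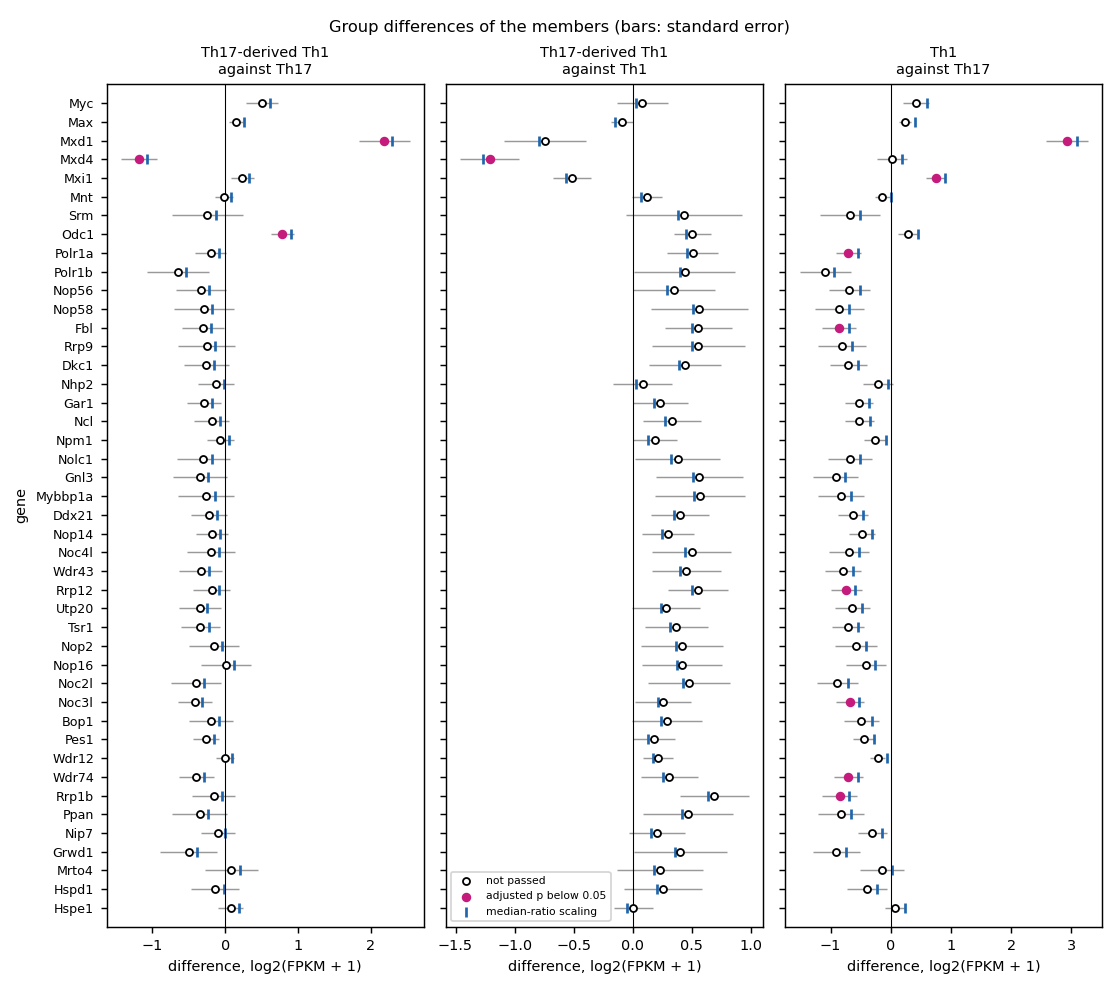
Log2 difference in FPKM + 1 of every member in the 3 comparisons (horizontal axis; bars, standard error), filled where the limma adjusted p was below 0.05; blue ticks give the difference with median-ratio scaling. The ribosome biogenesis genes lie left of 0 in Th1 against Th17 cells and right of 0 in converted against Th1 cells, most of them as open circles that did not pass.

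Groups that did not overlap were counted as well. All 3 converted libraries lay above all Th17 libraries for 3 members (Max, Mxd1 and Odc1) and below for 3 (Mxd4, Wdr74 and Polr1b), against 13.2% and 30.0% of all genes. Against Th1 libraries they lay above for 1 (Odc1) and below for 2 (Mxd4 and Mxi1), with 16.3% and 12.9% of all genes. The Th1 libraries lay above the Th17 libraries for 3 (Max, Mxd1 and Mxi1) and below for 7 (Fbl, Pes1, Wdr43, Wdr74, Rrp12, Rrp1b and Polr1a), with 16.4% and 36.4% of all genes. The members lower in Th1 cells were no more frequent than genes at large by this count.

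The 6 lower calls in Th1 against Th17 cells turned on a few libraries. Without replicate 2 of the Th1 cells the count of members lower was 34 (35.7% of all genes). Without replicate 3 of the converted cells, which enters through the shared spread, it was 13 (30.4% of all genes). It was 2 without replicate 1 or replicate 2 of the converted cells (26.5% and 26.1%). It was 0 without replicate 1 or 3 of the Th1 cells (23.6% and 19.6%) and without any 1 of the 3 Th17 libraries (18.6% to 24.7%). Without replicate 3 of every group it was also 0 (18.7%). With median-ratio scaling, which moved the median of all genes from -0.17 to -0.01, the count lower was 0 and 5 members were higher (Mxd1, Mxi1, Max, Myc and Odc1), against 16.8% and 19.4% of all genes. All genes then split into 2043 higher and 1766 lower, in place of 1478 and 3048 as deposited. The biogenesis median remained below that of all genes under that scaling, at -0.53 against -0.01. Under the same scaling 2 members were higher and 1 lower in converted against Th17 cells (7.99% and 4.77% of all genes, or 842 and 502 genes in place of 678 and 1000 as deposited), and 0 were higher and 1 lower in converted against Th1 cells (4.78% and 5.66%). In converted against Th1 cells 12 members, all ribosome biogenesis genes (Fbl and Polr1a among them), were higher without replicate 2 of the Th1 cells (10.2% of all genes), and 2 were lower (7.58%).

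**Figure D4:**
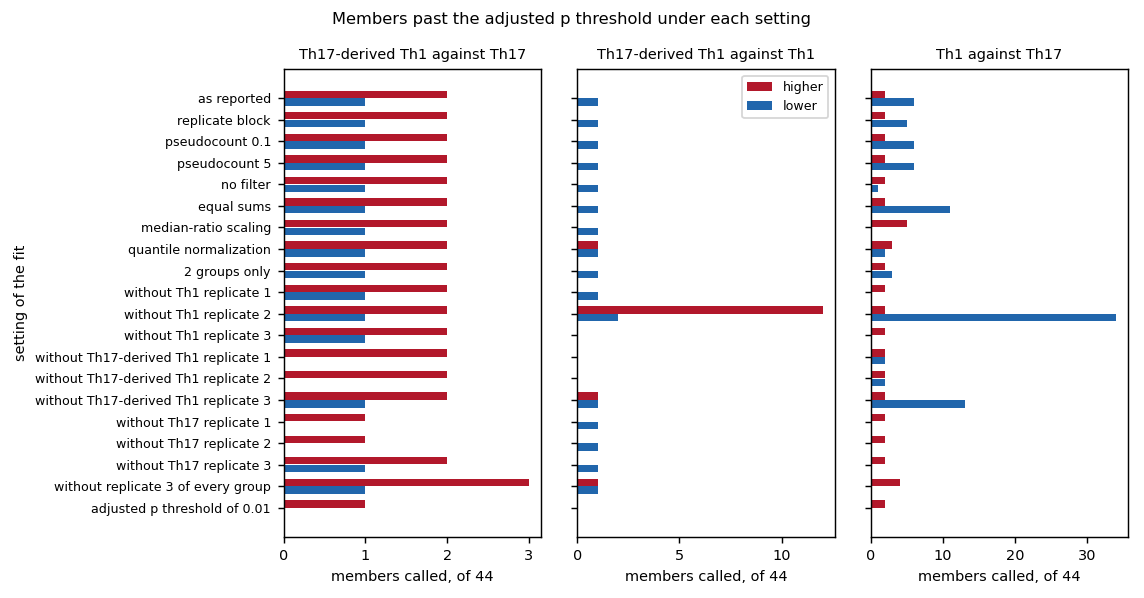
Number of the 44 members past the adjusted p threshold, higher (red) or lower (blue), in each comparison (panels, each with its own horizontal scale) and under each setting of the fit (rows). Calls in converted against Th17 cells stayed between 0 and 3 in each direction, while the count lower in Th1 against Th17 cells ranged between 0 and 34.

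The ribosome biogenesis genes varied together between libraries of 1 group. Their share of the summed FPKM was 0.413%, 0.405% and 0.263% in converted cells, 0.217%, 0.413% and 0.225% in Th1 cells and 0.393%, 0.374% and 0.476% in Th17 cells. The highest Th1 library was thus at the level of the highest converted library, and the lowest converted library was nearer to the lower Th1 libraries. Replicate 3 of the converted cells was the lowest of its group for 33 of 34 members, against 46.8% of all tested genes. Replicate 2 of the Th1 cells was the highest of its group for 33 of 34, against 45.6% of all genes, and replicate 3 of the Th17 cells the highest for 34 of 34, against 42.9%.

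The within-group SD of log2(FPKM + 1), taken as the median over the 34 members, was 0.40 in converted cells, 0.58 in Th1 cells and 0.20 in Th17 cells. Over all tested genes it was 0.14, 0.18 and 0.13. The highest library exceeded the lowest by a median of 1.70-fold in converted cells, 2.23-fold in Th1 cells and 1.31-fold in Th17 cells for these members, against 1.24-fold, 1.32-fold and 1.21-fold for all genes. The SD was above the median of all genes for 33, 34 and 29 of the 34 members in the same order of groups. The spread between replicates was therefore wider for ribosome biogenesis genes than for a typical gene in all 3 groups, and widest in Th1 cells.

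**Figure D5:**
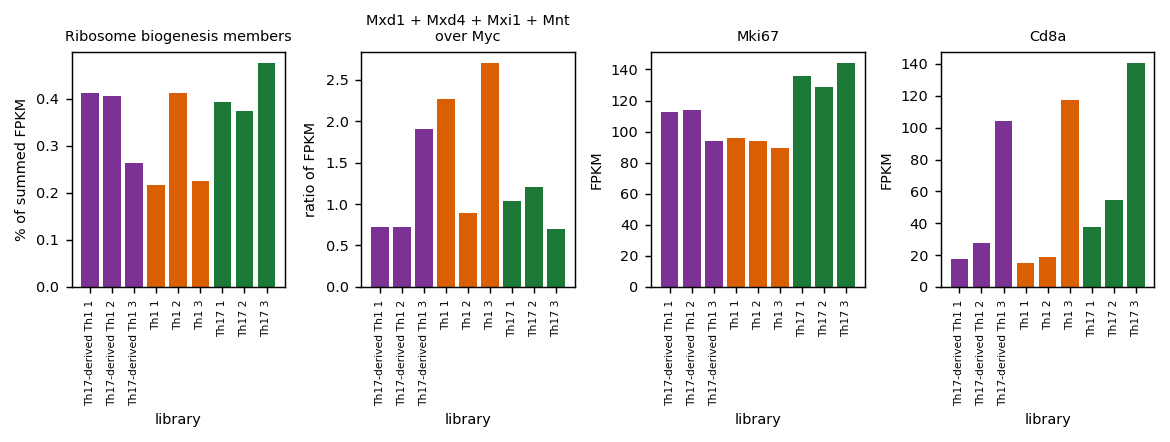
Bars for each library, with converted, Th1 and Th17 cells from left to right: the share of summed FPKM held by the 34 ribosome biogenesis members (%), the ratio of the antagonist sum to Myc, and the FPKM of Mki67 and Cd8a. The biogenesis share lay between 0.217% and 0.476%, and the 3 lowest libraries were replicate 3 of the converted cells and replicates 1 and 3 of the Th1 cells.

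Other measures moved with these libraries in part. The antagonist sum was highest in the 3 libraries with the lowest biogenesis share, at 101 FPKM in replicate 3 of the converted cells and at 136 and 147 FPKM in replicates 1 and 3 of the Th1 cells, and lay between 41.5 and 77.5 FPKM in the other 6. Most of the sum in those 3 libraries was Mxd1 (70.4, 90.8 and 99.9 FPKM). Mxd4 was at 12.5, 27.8 and 25.9 FPKM there and at 17.3 to 28.2 FPKM in Th17 cells, and Mnt lay between 7.42 and 11.0 FPKM in all 9 libraries. Myc followed the biogenesis order within groups. It was lowest of its group in replicate 3 of the converted cells (53.3 FPKM). It was highest of its group in replicate 2 of the Th1 cells (87.1 FPKM) and replicate 3 of the Th17 cells (59.1 FPKM). Over all libraries, however, Myc was lowest in replicates 1 and 2 of the Th17 cells (44.1 and 44.3 FPKM). Cd8a was at 17.4, 27.4 and 104 FPKM in converted cells, 15.3, 19.0 and 117 FPKM in Th1 cells and 37.4, 54.9 and 141 FPKM in Th17 cells. Replicate 1 of the Th1 cells had a low biogenesis share with little Cd8a, and replicate 3 of the Th17 cells the highest share with the most. The proliferation gene Top2a was at 373, 348 and 263 FPKM in converted cells, 230, 232 and 191 FPKM in Th1 cells and 326, 298 and 336 FPKM in Th17 cells. Mki67, another proliferation gene, was at 113, 114 and 93.6 FPKM, 96.2, 93.8 and 89.5 FPKM, and 136, 129 and 144 FPKM in the same order. Pcna, also of the 10 listed proliferation genes, was highest in Th1 cells. It was at 310, 300 and 263 FPKM, 439, 390 and 425 FPKM, and 252, 233 and 266 FPKM in that order. By limma 1 of the 10 genes was higher in Th1 than in Th17 cells and 3 were lower (14.0% and 28.9% of all genes were). Pcna was higher (0.73, adjusted p = 0.000502), and Top2a, Mki67 and Ccna2 were lower (adjusted p = 0.0114, 0.00249 and 0.0193). In converted against Th1 cells Top2a was higher and Pcna lower (adjusted p = 0.0314 and 0.0102). Against Th17 cells Mki67 was lower in converted cells (adjusted p = 0.0375). That Mki67 call held in 1 of 9 fits without 1 library, and that of Top2a against Th1 cells in 4. Mki67 did not mark replicate 2 of the Th1 cells, which was the highest of its group for ribosome biogenesis. The 10 genes as a list did follow that order. Their median deviation of log2(FPKM + 1) from the mean over the 9 libraries was 0.092, 0.064 and -0.29 in converted cells. It was -0.16, 0.070 and -0.33 in Th1 cells and 0.105, 0.065 and 0.37 in Th17 cells. Over all tested genes this median lay between -0.11 and 0.095. The list was thus lowest in the same 3 libraries as the biogenesis share. The summed macrophage and monocyte genes were at 6.74 FPKM in replicate 3 of the converted cells and at 8.79 and 11.8 FPKM in replicates 1 and 3 of the Th1 cells, against 1.42 to 4.03 FPKM in the other 6 libraries, so they were highest in the 3 libraries with the lowest biogenesis share. For 21 MYC targets outside ribosome biogenesis, the median deviation was 0.25, 0.20 and -0.26 in converted cells. It was -0.39, 0.43 and -0.41 in Th1 cells and -0.006, -0.016 and 0.38 in Th17 cells. These targets were thus also lowest in the same 3 libraries. The part of these measures in the library pattern was not tested.

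Beyond the 44 members, 106 other ribosome biogenesis genes were tested. In Th1 against Th17 cells 39 were lower and 2 higher, with a median of -0.50 (28.9% and 14.0% of all genes were, with a median of -0.17); with median-ratio scaling 24 were lower and 4 higher (16.8% and 19.4% of all genes). The count lower was 20, 84 and 14 without replicates 1, 2 and 3 of the Th1 cells (23.6%, 35.7% and 19.6% of all genes). It was 20, 21 and 23 without those of the Th17 cells (19.0%, 18.6% and 24.7%), and 8 without replicate 3 of every group (18.7%). The largest falls were those of Mdn1, a dynein-like ATPase that releases factors from large subunit precursors (-1.28, adjusted p = 0.00597), Sdad1, whose yeast counterpart serves large subunit export (-1.13, adjusted p = 0.0108), and Wdr46 of the small subunit processome (-1.13, adjusted p = 0.00515). Riok1, an atypical kinase of late small subunit maturation, went the other way. It was at 40.7, 40.1 and 48.6 FPKM in converted cells, 56.7, 38.7 and 47.1 FPKM in Th1 cells and 18.7, 18.1 and 25.0 FPKM in Th17 cells. It was 2.06-fold higher in converted cells (adjusted p = 0.00378) and 2.24-fold higher in Th1 cells (adjusted p = 0.000924) than in Th17 cells, with no overlap. Polr1d, a subunit shared by RNA polymerases I and III, was 1.38-fold higher in Th1 than in Th17 cells (adjusted p = 0.0137). In Th1 against Th17 cells the calls of Mdn1, Sdad1, Wdr46 and Riok1 held in 9 of 9 fits that each left out 1 library, and that of Polr1d in 8. Without replicate 3 of every group those of Sdad1 (adjusted p = 0.0698), Wdr46 (0.0511) and Polr1d (0.0567) were lost.

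Between converted and Th17 cells, Wdr46 (-0.87, adjusted p = 0.0358) and Taf1c, a subunit of the RNA polymerase I selectivity factor (-0.51, adjusted p = 0.0127), were the 2 other ribosome biogenesis genes that were lower, and Riok1 was the 1 that was higher (9.49% and 6.43% of all genes were lower and higher). With 1 library left out, Wdr46 kept its call in 3 of 9 fits and Taf1c in 7, and neither kept it without replicate 3 of every group (adjusted p = 0.163 and 0.0501). With genes of low level kept in the fit, 1 other ribosome biogenesis gene was lower in converted than in Th17 cells (6.02% of all genes). Between converted and Th1 cells, Utp14a (0.53, adjusted p = 0.0426) and Rexo4 (0.45, adjusted p = 0.0186) were higher and 0 were lower, also at an unadjusted p below 0.05 in limma (5.67% and 4.81% of all genes were higher and lower). Their calls held in 2 and 5 of 9 fits without 1 library, and in neither case without replicate 3 of every group (adjusted p = 0.0986 and 0.0796). Without replicate 2 of the Th1 cells 36 were higher in that comparison (10.2% of all genes), and 3 without replicate 3 of the converted cells (5.78%). The count higher was 1 without any 1 Th17 library (4.01% to 6.06%) and 0 without any other library (1.86% to 3.89%). Between converted and Th17 cells the count lower was 0 without replicate 1 of the converted or replicate 2 of the Th17 cells (3.97% and 2.90% of all genes). It ranged up to 10, without replicate 2 of the Th1 cells (13.9%).

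Of 8 further genes of the MYC and MAX family, 6 could be tested. Mga, a MAX partner that represses germline genes, was at 7.54, 8.24 and 6.76 FPKM in converted cells, 5.65, 6.22 and 5.55 FPKM in Th1 cells and 11.0, 10.6 and 10.0 FPKM in Th17 cells. It was lower than in Th17 cells both in converted cells (-0.44, adjusted p = 0.0173) and in Th1 cells (-0.76, adjusted p = 0.000576). The call in converted cells held in 5 of 9 fits without 1 library and was lost without replicate 3 of every group (adjusted p = 0.0809), and that in Th1 cells held in 9 of 9. Mxd3, the MXD gene linked to proliferating cells, was lower in Th1 than in Th17 cells (-0.56, adjusted p = 0.0119; 0.058 with median-ratio scaling and 0.0508 without replicate 2 of the Th17 cells). With limma 0 of the 6 passed between converted and Th1 cells, where 1 was higher at an unadjusted p below 0.05.

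Among 11 tested other polyamine genes, Smox, which encodes spermine oxidase, was 2.82-fold higher in converted than in Th17 cells (adjusted p = 0.025), a call that held in 5 of 9 fits without 1 library and was lost without replicate 3 of every group (adjusted p = 0.168). That call was also lost when genes of low level were kept in the fit. Sat1, which encodes the acetyltransferase that starts polyamine breakdown, and the spermine synthase gene Sms were 1.86-fold and 1.25-fold higher in Th1 than in Th17 cells (adjusted p = 0.0215 and 0.0469). Sat1 and Smox act in catabolism and Sms in synthesis. The calls of Sat1 and Sms held in 5 and 1 of 9 fits without 1 library, and both were lost without replicate 3 of every group (adjusted p = 0.149 and 0.0742). None passed between converted and Th1 cells by limma, where 1 was lower at an unadjusted p below 0.05.

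Of 21 tested MYC targets outside ribosome biogenesis, 3 were higher and 0 lower in Th1 against Th17 cells (14.0% and 28.9% of all genes were); at an unadjusted p below 0.05 in limma 4 were lower. Hk2, which encodes hexokinase 2, was at 23.3, 21.2 and 20.0 FPKM in converted cells, 22.2, 30.9 and 19.1 FPKM in Th1 cells and 8.10, 7.90 and 15.9 FPKM in Th17 cells. It was higher in converted cells (2.02-fold, adjusted p = 0.0274) and in Th1 cells (2.22-fold, adjusted p = 0.00685) than in Th17 cells. The call in Th1 cells held in 9 of 9 fits without 1 library. That in converted cells held in 4 of 9: it was lost without any 1 of the 3 converted libraries and without replicate 1 or 2 of the Th17 cells (adjusted p up to 0.113), and also when genes of low level were kept in the fit. Ccnd2, which encodes cyclin D2, and the nucleoside kinase gene Nme2 were 1.65-fold and 1.47-fold higher in Th1 than in Th17 cells (adjusted p = 0.0116 and 0.00525; both calls held in 9 of 9 fits without 1 library).

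Genes that MYC is known to repress held the largest difference of the other lists, that of Cdkn1a. Cdkn1a, which encodes the cell cycle inhibitor p21, was at 125, 124 and 144 FPKM in converted cells, 215, 342 and 253 FPKM in Th1 cells and 32.5, 33.9 and 52.7 FPKM in Th17 cells. It was 3.31-fold higher in converted cells (adjusted p = 0.00104) and 6.70-fold higher in Th1 cells (adjusted p = 4.46e-05) than in Th17 cells, and it was lower in converted than in Th1 cells (-1.01, adjusted p = 0.0183). The groups did not overlap in any comparison. Cdkn2b, which encodes p15, was higher than in Th17 cells in converted cells (2.63-fold, adjusted p = 0.0229) and in Th1 cells (2.00-fold, adjusted p = 0.0369), and each of these calls held in 4 of 9 fits without 1 library. Cdkn1b, which encodes p27, and Gadd45a, a growth arrest gene, fell in Th1 relative to Th17 cells, by 1.12 and by 0.85 on the log2 scale (adjusted p = 0.0177 and 0.00706). Gadd45a was higher in converted than in Th1 cells (0.83, adjusted p = 0.0271; called in 4 of 9 fits without 1 library), so of the 5 tested genes some were higher and some lower. The calls of Cdkn1a and Gadd45a against Th17 cells held in 9 of 9 such fits, that of Cdkn1b in 7, and that of Cdkn1a between converted and Th1 cells in 6.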

How the data were processed

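Messenger RNA was sequenced in 9 libraries of cultured mouse T cells, and sample titles gave groups and replicate numbers. The authors deposited FPKM values for 22017 gene symbols. Per the submitters' processing notes, the build was mm10 and the tools named were HISAT2 and DESeq2. Versions, roles, annotation and strand handling: not given in the sources used here. Gene positions are from GENCODE (GRCm38) and promoters from RefSeq. FPKM holds no read counts and low values shared no common step (the commonest ratio covered 0.648% to 1.40% of low genes), so depth is unknown and no counting interval is given. Since FPKM depends on what else a library holds, scaling was varied.

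From the deposited FPKM, log2(FPKM + 1) was computed and 1 limma model (version 3.58.1, R 4.3.3) with trended prior variance took in all 9 libraries (6 residual degrees of freedom) and 10538 genes, those reaching 1 FPKM in 3 or more libraries. The p-values are two-sided and Benjamini-Hochberg adjusted over all genes tested, with a threshold of 0.05, and fold changes are in FPKM + 1, which understates those of low genes. The fit was tested on simulated data. Tables and figures were made with Python 3.11.15, pandas 2.3.3, numpy 2.4.6 and matplotlib 3.10.9. As alternatives, the fit was repeated with a replicate block, other pseudocounts (0.1 and 5), no filter, 3 scalings (equal sums, median ratio, quantile), fits of 2 groups, a threshold of 0.01 and the omission of each library; omitting replicate 3 of every group, and counting the other gene lists and the ribosome biogenesis signs under each alternative, were added after the data were seen. The members and all lists were chosen with earlier results of these data known. All members are named or counted; of each other list, up to 3 called genes with the largest difference per direction and comparison are named.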

Additional observations from a re-analysis of the deposited data

How the results depend on the processing

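Counts of members that moved are given first. In converted against Th17 cells (2 higher, 1 lower), 1 was higher and 0 lower at a threshold of 0.01 (352 and 316 of 10538 genes). Without replicate 3 of every group 3 were higher (5.01% of all genes). Leaving out single libraries gave 1 to 2 higher (3.63% to 8.49% of all genes) and 0 to 1 lower (2.90% to 13.9%). In converted against Th1 cells (0 higher, 1 lower), 1 was higher with quantile normalization (4.83% of all genes) and without replicate 3 of every group (2.83%), Odc1 in both. At 0.01, 0 were lower (117 of 10538 genes). Single omissions gave 0 to 12 higher (1.86% to 10.2% of all genes) and 0 to 2 lower (1.14% to 7.58%). In Th1 against Th17 cells (2 higher, 6 lower), the count lower was 1 with no filter (19.1% of all genes) and 11 with equal sums (34.6%). It was 2 with quantile normalization (20.3%) and 3 with 2 groups only (25.6%). It was 0 with median-ratio scaling (16.8%), at 0.01 (1584 of 10538 genes) and without replicate 3 of every group (18.7%). With median-ratio scaling 5 were higher (19.4%), and 4 without replicate 3 (11.2%). Single omissions gave 0 to 34 lower (18.6% to 35.7% of all genes) and 2 higher (10.1% to 15.9%). Of the other lists, the MYC targets had 3 higher in Th1 against Th17 cells under every single omission (10.1% to 15.9% of all genes). They had 0 to 12 lower there (12 without replicate 2 of the Th1 cells, where 35.7% of all genes were). In converted against Th17 cells 0 to 3 MYC targets were higher (1 with all libraries; 3.63% to 8.49% of all genes). Other polyamine genes called higher under single omissions ranged between 0 and 1 in converted and 0 and 3 in Th1 cells, each against Th17 cells. Genes that MYC represses ranged between 1 and 2 in both. Of all genes, 3.63% to 8.49% were higher in converted and 10.1% to 15.9% in Th1 cells under those omissions.

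Differences near 0 changed sign. For Mnt, converted against Th17 cells gave 0.085 with median-ratio scaling, 0.097 with quantile normalization and -0.094 to 0.034 with 1 library left out, and Th1 against Th17 cells gave 0.012 and 0.046 with those scalings. For Mxd4 in Th1 against Th17 cells the values were -0.027 with equal sums, -0.23 without replicate 3 of every group and -0.15 to 0.25 with 1 library left out. For Myc in converted against Th1 cells single omissions gave -0.055 to 0.28. For Srm in converted against Th17 cells they gave -0.47 to 0.19, and 0.40 without replicate 3 of every group. The cause was not tested. Same-numbered libraries deviated together at correlations between -0.18 and 0.66, and not every pair was over 0.1, so the numbers were not taken to pair the samples. Converted and Th1 libraries did correlate at 0.54 and 0.66 for replicates 2 and 3, and Cd8a and Cd8b1 were highest in replicate 3 of every group. A replicate block left 2 members higher and 1 lower in converted against Th17 cells (7.07% and 8.88% of all genes). It left 0 and 1 in converted against Th1 cells (6.02% and 5.89%), and 2 and 5 in Th1 against Th17 cells (14.1% and 28.2%). Unknown depth and 3 libraries a group limit the precision of every value.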
